A study of Mus musculus with 2 samples.

Results

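The variable (V) genes of the T-cell receptor were followed through a pair of single-cell RNA sequencing libraries of mouse spleen. Members were all rows of either deposited table whose symbol starts with Trav, Trbv, Trgv or Trdv, which gave 126 of the 30457 genes listed in either table. They comprised 96 Trav, 20 Trbv, 5 Trgv and 5 Trdv rows, and 119 of them had a row in the TAS-Seq table, 70 in the BD WTA table and 63 in both.

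Both libraries came from spleen cells of female C57BL/6J mice that carried subcutaneous Lewis lung carcinoma, a transplantable lung tumour line of the same strain. The mice were 10 weeks old when the tumour cells were injected, were given 200 μg of an anti-CD4 antibody on day 5 and again on day 9, and their spleens were taken on day 12. No mouse without tumour or antibody is among these samples. Cells from 3 spleens made up 1 pool, red blood cells were lysed, and the pool was stored frozen. After thawing, 2000 cells went onto 1 BD Rhapsody cartridge, where single cells are captured in wells together with barcoded beads. After cDNA synthesis the beads were divided, and cDNA was amplified either by TAS-Seq, which adds a homopolymer tail to the cDNA with terminal transferase and amplifies from it, or by the whole-transcriptome (WTA) kit of BD. Each method gave 1 library from 1 pool of cells, so no test between methods was possible and differences describe these libraries alone. The tables hold reads, not molecules, and reads of 1 molecule are not independent. Every interval below is a 95% interval that covers counting error only. Intervals on pooled reads treat each read as independent and leave out the spread between cells, so they are too narrow.

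The antigen receptor of a T cell is assembled from gene segments. In a developing thymocyte 1 V segment is joined to a joining (J) segment, with a diversity segment between them for the beta and delta chains, and the product is spliced to a constant gene. Most T cells carry an alpha chain (Trav joined to Traj, constant gene Trac) and a beta chain (Trbv joined to Trbj, constant genes Trbc1 and Trbc2), whereas gamma delta T cells carry a gamma chain (Trgv) and a delta chain (Trdv). A mature cell therefore mostly transcribes 1 rearranged V gene per chain, and the V gene is part of the pocket that meets the peptide and the presenting molecule. In C57BL/6 mice a stretch of the alpha locus is repeated, and the copies are named with d or n after the family number.

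The rows lay at the known receptor loci of build GRCm38. Trav rows spanned chr14:52427928-53876752, Trbv rows chr6:40891229-41558452, Trgv rows chr13:19184981-19340454 and Trdv rows chr14:53881612-54149294. Of the 126 rows, 121 were matched by symbol to GENCODE and 5 to RefSeq only, and 4 rows (Trav11n, Trav12-4, Trav8-2 and Trbv24) are typed as pseudogenes. GENCODE lists 22 Trbv genes, and 19 of them had a row.

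How far reads can tell these genes apart is set by their sequence. The 90 bases at or next to the 3′ end of germline V transcripts are shown 5′ to 3′ for sets of related rows on which the calls below turn, taken from GENCODE transcripts, and capitals mark the positions at which members of a set differ. They take in the codon of the conserved cysteine (tgt) that opens the hypervariable junction. In the Trav14 family, which led more called cells than any other family in the TAS-Seq library, 5 of the 9 rows are shown, from Trav14-1 (chr14:53554022-53554558) and Trav14-2 (chr14:53640701-53641225) to Trav14-3 (chr14:53763173-53763694), Trav14d-3-dv8 (chr14:53078452-53079045) and Trav14n-3 (chr14:53370077-53370575). The 90 bases differed at 7 positions in all, and pairs of rows at 2 to 4.
Trav14-1: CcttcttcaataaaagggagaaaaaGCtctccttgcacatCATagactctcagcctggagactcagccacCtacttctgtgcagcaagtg
Trav14-2: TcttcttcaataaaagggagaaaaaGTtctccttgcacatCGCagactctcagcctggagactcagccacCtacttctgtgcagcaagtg
Trav14-3: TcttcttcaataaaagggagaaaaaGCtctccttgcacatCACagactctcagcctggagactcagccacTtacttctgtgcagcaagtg
Trav14d-3-dv8: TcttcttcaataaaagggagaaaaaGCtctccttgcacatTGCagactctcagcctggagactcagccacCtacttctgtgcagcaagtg
Trav14n-3: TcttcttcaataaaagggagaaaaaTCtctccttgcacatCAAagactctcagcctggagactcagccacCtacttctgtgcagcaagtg

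The Trav11 rows, whose product forms the alpha chain of invariant natural killer T cells, are closer still. Over these bases Trav11 (chr14:53519303-53519859) had 0 differences from Trav11d (chr14:52824357-52824912), and 1 from the pseudogene Trav11n (chr14:53135122-53135678).
Trav11: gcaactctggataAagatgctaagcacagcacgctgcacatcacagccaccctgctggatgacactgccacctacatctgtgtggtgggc
Trav11d: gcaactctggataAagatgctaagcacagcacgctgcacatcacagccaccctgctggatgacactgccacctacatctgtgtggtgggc
Trav11n: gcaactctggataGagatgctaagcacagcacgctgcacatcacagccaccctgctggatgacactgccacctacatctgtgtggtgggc

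Trbv genes are shown for contrast, because each of them is a separate unit of the calls. Trbv12-1 (chr6:41113550-41114067) and Trbv12-2 (chr6:41118851-41119364) differed at 5 of the 90 positions, and the Trbv13 genes (chr6:41116007-41116468, chr6:41121396-41121832 and chr6:41130147-41130585) at 22 positions in all, with 10 between Trbv13-2 and Trbv13-3.
Trbv12-1: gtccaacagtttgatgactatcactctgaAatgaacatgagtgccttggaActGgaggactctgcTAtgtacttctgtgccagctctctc
Trbv12-2: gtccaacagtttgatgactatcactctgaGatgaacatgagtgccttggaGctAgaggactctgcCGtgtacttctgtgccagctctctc
Trbv13-1: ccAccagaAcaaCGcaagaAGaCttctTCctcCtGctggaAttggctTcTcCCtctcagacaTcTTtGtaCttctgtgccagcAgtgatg
Trbv13-2: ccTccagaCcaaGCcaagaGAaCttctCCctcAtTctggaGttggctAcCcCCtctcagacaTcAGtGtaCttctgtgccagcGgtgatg
Trbv13-3: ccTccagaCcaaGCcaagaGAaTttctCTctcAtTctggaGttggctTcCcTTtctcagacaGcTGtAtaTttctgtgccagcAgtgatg

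The pair Trdv2-1 (chr14:53946073-53946660) and Trdv2-2 (chr14:53960944-53961602) is shown because most Trdv calls below fell on both. It differed at 4 positions, all of them close to the 3′ end.
Trdv2-1: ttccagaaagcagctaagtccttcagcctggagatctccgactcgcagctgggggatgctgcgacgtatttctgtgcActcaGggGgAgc
Trdv2-2: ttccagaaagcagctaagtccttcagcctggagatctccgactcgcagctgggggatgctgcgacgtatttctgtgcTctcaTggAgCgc

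Across whole transcripts, the median Trav row shared 78.9% of its 31-base words with another V row, 32 of 95 Trav rows with a sequence shared all of them, and 0 words were shared with a row of another Trav family. Among the 20 Trbv rows the median was 0% and the highest share 11.3%. Trdv2-1 shared 69.5% of its words with Trdv2-2. Trav usage was therefore counted by family (all d, n and numbered rows together) and Trbv usage by gene. Trgv and Trdv usage was also counted by gene, although the Trdv2 pair shares most of its words and a sequence was at hand for 1 of the 5 Trgv rows. Reads of Trav rows within a family are uncertain at the level of the row.

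The filters kept 732 of 736 TAS-Seq barcodes and 708 of 716 BD WTA barcodes, and 0 barcodes were present in both tables. T cells were those in which Cd3e, Cd3d and Trac together reached 300 CPM, a gene's reads scaled to the total reads of its cell. There were 275 in the TAS-Seq library (37.6% of kept cells) and 287 in the BD WTA library (40.5%), with a median of 52805 and 42297 reads per T cell. The gate was checked with T-cell genes it did not use. At least 5 reads of Trbc2 were present in 95.6% and 91.99% of T cells against 1.25% and 0.829% of B-gated cells, and of Cd3g in 75.3% and 57.8% against 0.251% and 0.276%. For Trbc1 the shares were 92% and 52.6% against 0.501% and 0.552%. Lck gave 71.6% and 69.3% against 5.51% and 6.35%, and Cd247 gave 40% and 34.1% against 0% and 0.276%. B-gated cells (Cd79a, Cd79b and Ms4a1 at 300 CPM or more, the T-cell sum under 100 CPM) numbered 399 and 362 and served as cells that should lack receptor V reads. Since they were chosen for a low T-cell sum, their contrast with T cells was partly set by the gates. B-cell genes above the same level were also found in 11 and 15 T cells, which may be wells with more than 1 cell, and these were kept unless stated. At least 3 of 5 NK-cell markers (Ncr1, Klrb1c, Klre1, Gzma and Klrk1) were found in 5 and 2 T cells.

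V reads were sparse. The T cells of the TAS-Seq library held 2188 V reads on 112 rows, and those of the BD WTA library 1670 reads on 65 rows. These made up 93.3% and 94.03% of all V reads of the kept cells. Trav rows together had 72.4 CPM in TAS-Seq T cells (exact Poisson interval 68.3 to 76.7, 1144 reads) and 53.7 CPM in BD WTA T cells (49.8 to 57.9, 689 reads), a log2 ratio of 0.43. A leading Trav family had at least 1 read in only 108 and 35 T cells, and the intervals leave out the spread between cells. Trbv rows had 55.1 CPM (51.5 to 58.9, 871 reads) and 51.05 CPM (47.2 to 55.1, 655 reads), a log2 ratio of 0.11. Over the rows with at least 3 reads in each library, the Trav ratio was 0.00022 and the Trbv ratio -0.094. That set leaves out rows read in 1 library alone. Trav rows with a read in T cells numbered 86 with TAS-Seq and 42 with BD WTA, and the row within a family is uncertain. The set therefore cannot decide whether the pooled ratios hold. The median log2 ratio over the 9289 genes past a minimum of 10 CPM and 10 cells was 0.08, with 13.7% of genes higher by at least 1 in the TAS-Seq library and 8.8% lower. Of the 126 V rows, 0 reached that minimum in either library, so no single V gene is compared by level.

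Set against their own constant genes, V reads were a small share. For every 100 Trac reads there were 7.64 Trav reads in TAS-Seq T cells and 4.69 in BD WTA T cells. As a share of Trav and Trac reads together, this was 7.10% (exact binomial interval 6.71% to 7.50%) and 4.48% (4.16% to 4.82%). Trbv reads numbered 2.31 and 1.90 per 100 reads of Trbc1 and Trbc2, with shares of 2.25% (2.11% to 2.41%) and 1.86% (1.72% to 2.01%). These intervals on reads also leave out the spread between cells. For the gamma chain these values lay close together, with 18.1 and 17.1 Trgv reads per 100 reads of Trgc1 to Trgc4. By level, Trgv rows had 9.75 CPM in TAS-Seq T cells (154 reads) and 24.4 CPM in BD WTA T cells (313 reads). That is a log2 ratio of -1.32. Few cells lay behind it, since a leading Trgv gene had at least 5 reads in 5 and 7 T cells. J segments were rarer than V genes, with 1.97 and 1.84 Traj reads per 100 Trac reads and 0.752 and 0.478 Trbj reads per 100 Trbc reads. The recombination genes, which assemble receptors in the thymus and bone marrow, were nearly absent from T cells. Rag1 had no row for either library. At least 5 reads of Rag2 were found in 1 T cell of each library, and of Dntt in 2 TAS-Seq and 1 BD WTA T cells.

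A T cell was given a call for a chain when its leading unit had at least 5 reads and no other unit had as many. In the TAS-Seq library 65 of 275 T cells had a Trav call (23.6%, exact binomial interval 18.7% to 29.1%), against 29 of 287 in the BD WTA library (10.1%, 6.87% to 14.2%). The difference was 13.5 percentage points (Newcombe interval 7.39 to 19.7). A Trbv call was made in 40 TAS-Seq T cells (14.5%, 10.6% to 19.3%) and 30 BD WTA T cells (10.5%, 7.16% to 14.6%), a difference of 4.09 points (-1.40 to 9.65). Both chains were called in 10 cells (3.64%) and 6 cells (2.09%), and either chain in 34.5% and 18.5%. Most T cells of both libraries had neither call.

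The T cells of the libraries differed in total reads per cell. With total reads both equal and lower, both shares of Trav calls and their difference in points were smaller. With every T cell thinned to 20000 reads, which left out 7 TAS-Seq and 20 BD WTA cells, a Trav call was kept by 32 of 268 cells with TAS-Seq (11.9%) and by 19 of 267 with BD WTA (7.12%). That difference was 4.82 points with an interval of -0.192 to 9.92, which no longer left out 0. Each cell was thinned in a single random draw, and the spread over other draws was not measured. The Trbv difference became 3.71 points (-0.706 to 8.25). Since 20000 reads lie below both medians (52805 and 42297), the loss of reads and the equal depth were not told apart.

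The shares fell as the minimum number of reads was raised. At least 1 leading Trav read was found in 39.3% of TAS-Seq T cells and 12.2% of BD WTA T cells, and at least 10 reads in 16.7% and 8.01%. The Trbv shares ran from 36.4% and 20.2% at 1 read to 10.5% and 6.27% at 10 reads. In B-gated cells 20 of 399 TAS-Seq cells (5.01%) had a leading Trav read and 21 (5.26%) a leading Trbv read, whereas 0 of 362 BD WTA cells had either. With 5 reads, Trav and Trbv calls were made in 0 of 399 and 0 of 362 B-gated cells (upper limits of 0.92% and 1.01%), at medians of 42658 and 35563.5 reads per B-gated cell. Cells outside both gates had some Trav and Trbv calls, namely 1 Trav and 1 Trbv call in 58 TAS-Seq cells and 2 Trav calls in 59 BD WTA cells. A TAS-Seq cell held 25 reads of Trbv13-1 beside 3796 CPM of the B-cell genes, and a BD WTA cell held 12 reads of the Trav15 family beside NK-cell markers and no read of the T-cell genes of the gate.

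**Figure D1:**
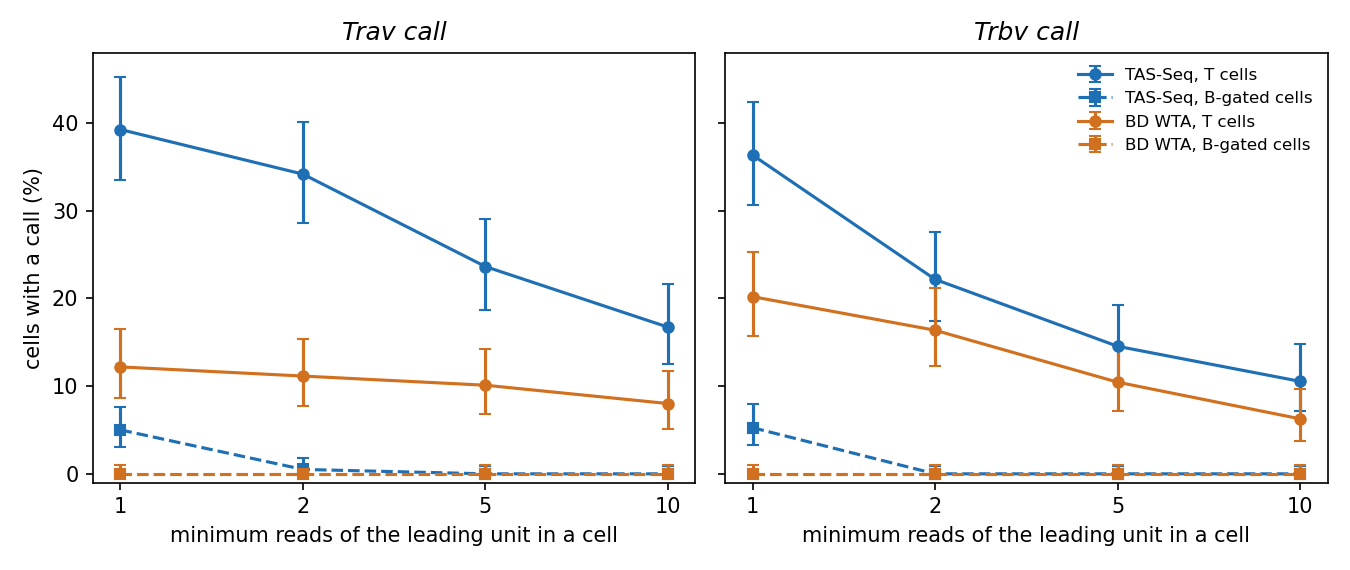
Percent of cells with a Trav call (left) or a Trbv call (right) against the minimum number of reads of the leading family or gene, for T cells (circles, solid lines) and B-gated cells (squares, dashed lines) of each library; bars are 95% exact binomial intervals. At 5 reads the T cells had calls in 23.6% and 10.1% (Trav) and 14.5% and 10.5% (Trbv), and the B-gated cells had none.

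Calls were most frequent in the cells with the most constant reads. When TAS-Seq T cells were ordered by Trac reads and split into 3 equal parts, Trav calls were made in 18.5% of the lowest part, 12.0% of the middle part and 40.7% of the highest part (30.5% to 51.5%). With BD WTA the shares were 5.21%, 11.5% and 13.7%. By Trbc reads, Trbv calls were made in 9.78%, 8.70% and 25.3% of TAS-Seq cells from the lowest to the highest part, and with BD WTA in 8.33%, 7.29% and 15.8%. The intervals of the lowest and highest parts overlapped in each case except Trav calls with TAS-Seq. The parts were set by unscaled reads, and total reads per cell were not held equal. The lowest parts, with at most 26 and 25 Trac reads per cell, still held 17 and 5 cells with a Trav call.

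In most cells with a Trav or Trbv call the reads of that chain fell on 1 family or gene. This held for Trav in 50 of 65 called TAS-Seq cells (76.9%) against 27 of 29 with BD WTA (93.1%), and for Trbv in 34 of 40 (85%) and 27 of 30 (90%). Counted by single row instead, all Trav reads fell on 1 row in 1 of 45 called cells with TAS-Seq and in 10 of 27 with BD WTA. Reads of the leading family lay on at least 2 of its rows in 62 of 65 cells with TAS-Seq (median 3 rows) and in 19 of 29 with BD WTA (median 2). All 22 Trav14-led cells of the TAS-Seq library had reads on at least 2 Trav14 rows, with a median of 4 rows and up to 6. Whether such a cell transcribed more than 1 of these near-identical rows was not tested.

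A second unit, with at least 5 reads and at least 10% of the reads of its chain, was seen for Trav in 5 of 65 called cells with TAS-Seq (7.69%, 2.54% to 17.0%) and in 1 of 29 with BD WTA (3.45%, 0.0873% to 17.8%). T cells can rearrange both alpha alleles, whereas the beta chain is mostly limited to 1. The TAS-Seq cells with a second family paired Trav9 (27 reads) with Trav3 (17 reads), Trav4 (43) with Trav9 (12), Trav15 (29) with Trav6 (5), Trav12 (12) with Trav16 (8) and Trav14 (11) with Trav9 (5). The BD WTA cell had 27 reads of Trav7 and 26 of Trav3. None of these 6 cells had 100 CPM or more of the B-cell genes, which does not bear on wells with more than 1 T cell. Total reads were 44415 to 112072 in the 5 TAS-Seq cells (median of T cells 52805), highest in the cell with Trav14 and Trav9, and 50681 in the BD WTA cell (median 42297). A second Trbv gene was found in 0 of 40 called cells with TAS-Seq (upper limit 8.81%) and in 1 of 30 with BD WTA. It was a CD8 cell with 31 reads of Trbv12-2, 29 of Trbv14 and 95670 reads in all, against a median of 42297.

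The alpha chain families differed in usage. Trav14 led 22 of 65 called TAS-Seq cells (33.8%, 22.6% to 46.6%) with 5 to 34 reads per cell and a median of 11. With BD WTA it led 6 of 29 cells (20.7%, 7.99% to 39.7%), which had 10, 12, 12, 15, 16 and 33 reads. The family that led most BD WTA cells was Trav6, with 7 cells (24.1%, 10.3% to 43.5%) of 8, 10, 28, 34, 45, 50 and 66 reads. Among TAS-Seq cells Trav6 led 6 cells (9.23%, 3.46% to 19.0%) with 5, 5, 5, 10, 21 and 24 reads. These orders were not set apart by the counts, since the Trav6 difference was -14.9 points (-33.5 to 0.323) and the Trav14 difference 13.2 points (-7.33 to 29.4).

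Trav13 and Trav16 led as many TAS-Seq cells as Trav6 or more. Trav13 led 7 TAS-Seq cells (10.8%) and 2 BD WTA cells (6.90%), Trav16 led 6 (9.23%) and 2 (6.90%), and Trav12 led 5 (7.69%) and 0 (upper limit 11.9%). Trav3 led 4 and 1 cells, Trav4 led 3 and 2, and Trav5 led 2 and 2. Of 17 families, 15 led a cell in at least 1 library and 12 in both. Across the 17 families Spearman's rho between the usage of the libraries was 0.67 and Pearson's r 0.71, a description of families that come from the same pool of cells. By pooled reads in place of called cells rho was 0.45 and r 0.37.

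**Figure D2:**
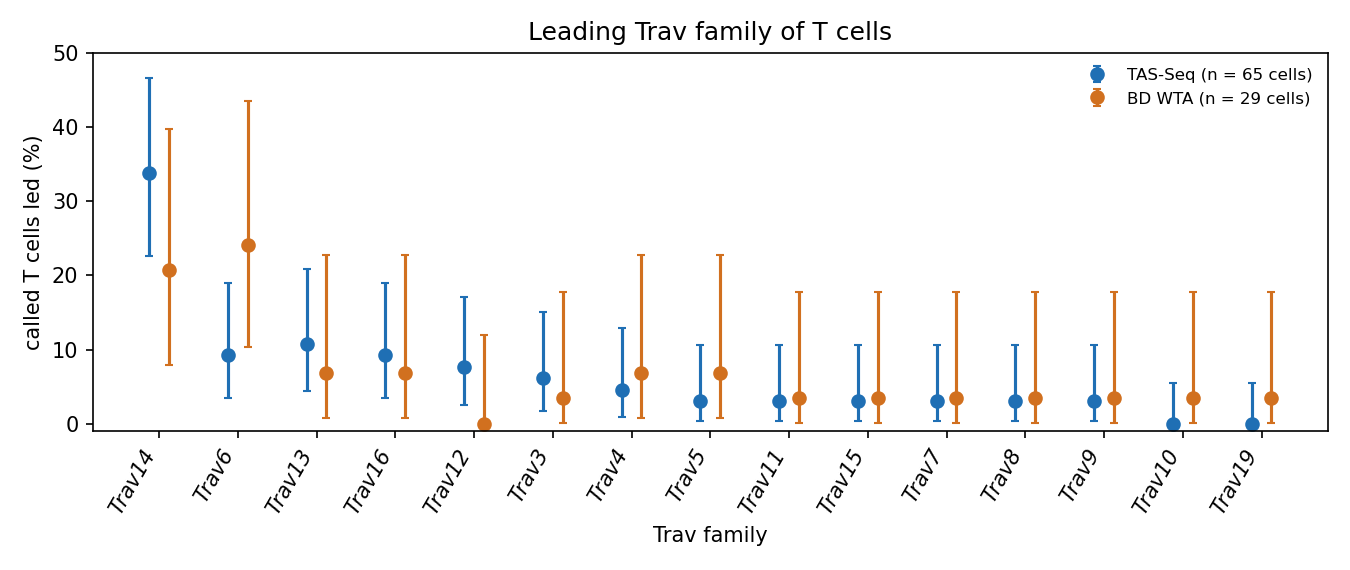
Percent of Trav-called T cells led by each Trav family (families with a call, ordered by the number of cells over both libraries); points are percents with 95% exact binomial intervals for 65 TAS-Seq cells and 29 BD WTA cells. Trav14 stands highest in the TAS-Seq library at 33.8% and Trav6 in the BD WTA library at 24.1%, and the intervals of the libraries overlap for both.

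Beta usage is given by single gene, so its shares are not set against those of the Trav families. Trbv2 led 7 of 40 called TAS-Seq cells (17.5%, 7.34% to 32.8%), which had 14, 14, 17, 23, 26, 27 and 31 reads, and 1 of 30 BD WTA cells (3.33%, 0.0844% to 17.2%), which had 57 reads. The difference was 14.2 points (-1.79 to 28.9). Trbv16 led 5 TAS-Seq cells (12.5%) and 1 BD WTA cell (3.33%), and Trbv15 led 4 (10%) and 0 (upper limit 11.6%). The BD WTA library was led by Trbv12-1, Trbv12-2, Trbv13-2 and Trbv3 with 4 cells each (13.3%, 3.76% to 30.7%), and these genes led 3, 2, 3 and 1 TAS-Seq cells. Trbv19 led 0 TAS-Seq cells and 3 BD WTA cells (10%), with 6, 13 and 36 reads, a difference of -10 points (-25.6 to 0.934).

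Among the remaining genes, Trbv13-1 led 0 and 3 cells, Trbv13-3 led 2 and 0, Trbv1 led 2 and 2, Trbv29 led 2 and 1, Trbv4 led 2 and 1, Trbv14 and Trbv26 each led 2 and 0, and Trbv31, the V gene that lies apart from the others in inverted orientation, led 1 and 0. Trbv24 and Trbv20 led no cell. Trbv24 had 0 reads in the T cells of both libraries, and Trbv20 had 3 and 2 reads. Of 20 genes, 18 led a cell in at least 1 library and 11 in both. Spearman's rho across the 20 genes was 0.09 and Pearson's r -0.04, with 40 and 30 cells spread over them. By pooled reads rho was 0.38 and r 0.47, close to the values of the Trav families. Over all 37 families and genes, 0 intervals of the difference between libraries left out 0, so no family or gene could be told apart between libraries at these numbers of cells.

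**Figure D3:**
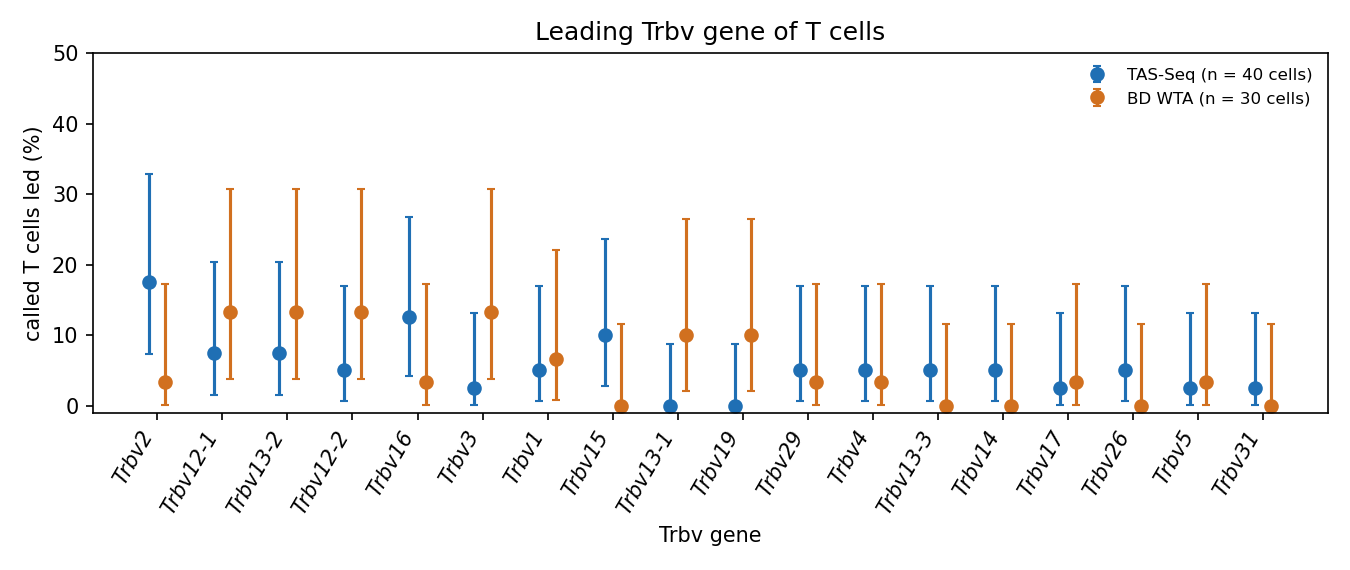
Percent of Trbv-called T cells led by each Trbv gene (genes with a call, ordered by the number of cells over both libraries); points are percents with 95% exact binomial intervals for 40 TAS-Seq cells and 30 BD WTA cells. No gene exceeds 17.5%, and the intervals of the libraries overlap for every gene.

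Cells with both calls gave the pairing of chains. The 10 TAS-Seq cells held 9 distinct pairs, since Trav14 with Trbv2 was found in 2 cells, both CD4 cells, with 19 and 11 reads of Trav14 and 14 reads of Trbv2 in each. Trbv2 led 4 of the 10 cells, and its other partners were Trav16 and Trav9. The 6 BD WTA cells held 6 distinct pairs, among them Trav6 (34 reads) with Trbv12-1 (14 reads), and Trav14 (12) with Trbv3 (38). A V pair names no clone, because junctions were not read here.

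T cells were next divided by coreceptor, which binds the class of presenting molecule that the receptor sees. CD4 cells had at least 5 reads of Cd4 and fewer than 5 of Cd8a and Cd8b1, and CD8 cells the reverse. This gave 66 CD4 and 120 CD8 cells in the TAS-Seq library and 72 and 117 in the BD WTA library, with 84 and 95 T cells that had neither. The mice had been treated with the anti-CD4 antibody, so the CD4 cells are those present after that treatment. Trav calls were made in 28.8% of CD4 and 25% of CD8 TAS-Seq cells, and in 13.9% and 8.55% of BD WTA cells. Trbv calls were made in 18.2% and 11.7%, and in 15.3% and 8.55%.

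In the TAS-Seq library Trav14 led 11 of 19 called CD4 cells (57.9%, 33.5% to 79.7%) and 8 of 30 called CD8 cells (26.7%, 12.3% to 45.9%). The difference was 31.2 points, with a Newcombe interval of 3.24 to 53.9. Reads of Trav14 ran from 6 to 34 in the CD4 cells and from 5 to 31 in the CD8 cells, so the cells overlapped in reads per cell. With BD WTA, Trav14 led 2 of 10 CD4 and 2 of 10 CD8 cells, a difference of 0 points with an interval of -34.1 to 34.1, which includes the TAS-Seq value. Of 37 families and genes, the interval left out 0 for 1 in the TAS-Seq library and for 0 in the BD WTA library. The intervals were not widened for the 37 comparisons, so 1 that leaves out 0 can arise from counting error alone. Cells of 1 pool are not replicates, so the Trav14 difference describes these cells and is not read as an effect. For Trav14 the interval took in 0 with at least 10 Trav reads (27.5 points, -5.87 to 54.7). It also did so with at least 2 coreceptor reads (21.9 points, -5.28 to 46.3). The interval left out 0 with at least 2 Trav reads (28.8 points, 6.50 to 48.4). The same held with at least 10 coreceptor reads (32.2 points, 3.23 to 55.4). Whether the difference itself differed between libraries was not tested.

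Trav16 led 0 of 19 CD4 and 5 of 30 CD8 cells in the TAS-Seq library and 0 of 10 and 2 of 10 in the BD WTA library. Each interval included 0, from -33.6 to 2.57 points and from -51.0 to 11.2 points. Trav6 differed by -1.40 and 10 points. Among the beta genes, Trbv2 led 3 of 12 CD4 and 1 of 14 CD8 cells in the TAS-Seq library and 0 of 11 and 0 of 10 in the BD WTA library. By pooled level, 1 V row passed the minimum in the TAS-Seq library, Trav14d-3-dv8, with 13.3 CPM in CD4 cells (47 reads) and 3.27 CPM in CD8 cells (26 reads). It passed the minimum of 10 CPM through its CD4 level alone, so these levels are a description and no difference is read from them. In that comparison 12.8% of 8884 genes were higher by at least 1 in CD4 cells and 9.87% lower, and the row shares words with other Trav14 rows. With BD WTA 0 V rows passed, and 13.5% of 7073 genes were higher and 11.8% lower.

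**Figure D4:**
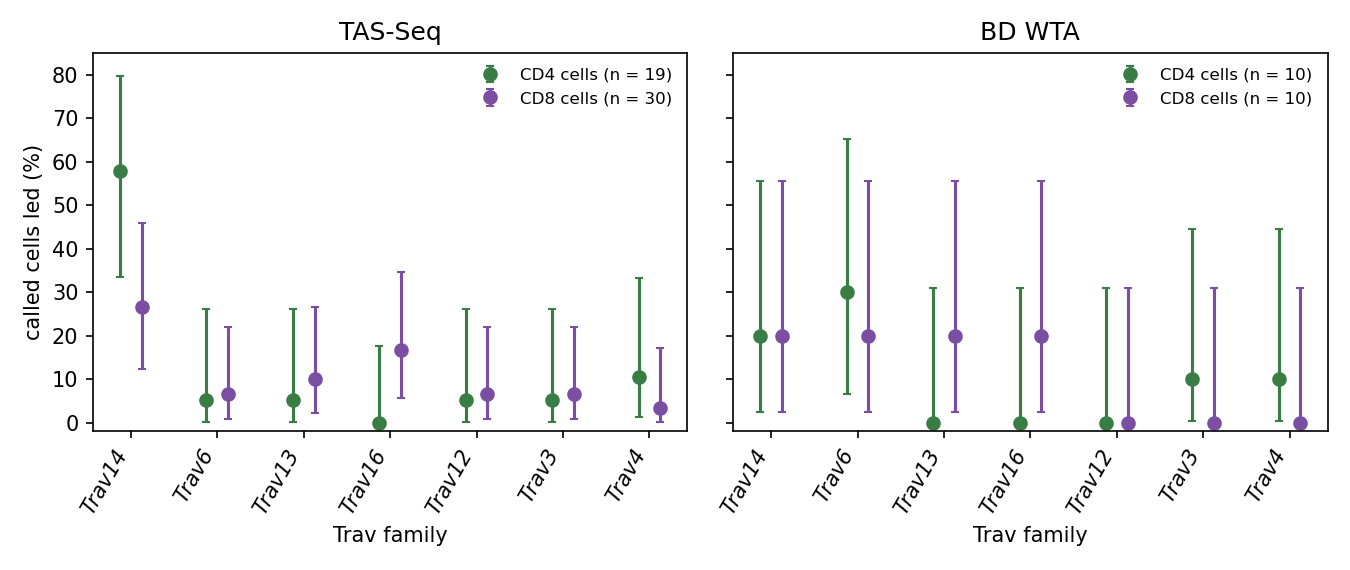
Percent of Trav-called CD4 cells (green) and CD8 cells (purple) led by each of 7 Trav families with at least 5 called cells over both libraries, one panel per library (the count of called cells is in each legend); bars are 95% exact binomial intervals. Trav14 leads 57.9% of CD4 and 26.7% of CD8 cells in the TAS-Seq panel and 20% of both in the BD WTA panel.

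Gamma and delta V genes were found in few cells. A Trgv call was made in 5 of 275 TAS-Seq T cells (1.82%, 0.593% to 4.19%) and 7 of 287 BD WTA T cells (2.44%, 0.986% to 4.96%). Trgv2 led 2 of the TAS-Seq cells, with 13 and 23 reads, and Trgv1 (41 reads), Trgv3 (12) and Trgv4 (7) led 1 each. Among BD WTA cells Trgv2 led 5 with 11, 29, 39, 53 and 86 reads, Trgv4 led 1 with 44 reads and Trgv5 led 1 with 7 reads. Reads lay on more than 1 Trgv gene in all 5 TAS-Seq cells and in 1 of the 7 BD WTA cells. The Trgv1-led TAS-Seq cell also had 34 reads of Trgv2, a Trgv2-led cell had 8 of Trgv4, and the Trgv3-led cell had 5 of Trgv1. In the Trgv4-led BD WTA cell Trgv2 had 43 reads, so that call rested on a margin of 1 read. The T-cell gate counts Trac, so a cell with few Trac reads can fall outside it. Outside both gates a Trgv call was made in 0 of 58 TAS-Seq and 1 of 59 BD WTA cells. That BD WTA cell had 11 reads of Trgv2, 7 of Trgv3 and 6 of Trgv1. It also had 95 reads of Trdc, 115 of Trbc2, 21 of Cd8b1 and 3 of Trac, and 123 CPM of the T-cell genes of the gate.

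The other receptor genes of the T cells with a Trgv call differed among them. At least 5 reads of Trdc, the delta constant gene, were found in 4 of the 5 TAS-Seq cells and in 3 of the 7 BD WTA cells. Among T cells without a Trgv call it was found in 4 of 270 and 5 of 280. In the 4 BD WTA cells without Trdc reads there were 24 to 160 reads of Trac, and 3 of them had a Trbv call, with 14, 42 and 70 Trbv reads. In these the gamma gene was read beside the alpha and beta genes. None of the 5 TAS-Seq cells had a Trbv call or 5 reads of Cd4, Cd8a or Cd8b1, and 1 had a Trav call. That cell had 11 Trav reads, 213 of Trdc and 1 of Trac. Some Trav genes can also join to the delta locus, and the tables do not show which constant gene a V read was attached to. The gamma constant genes were found at 5 reads or more in all 12 cells, and in 12 and 11 of the other T cells.

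**Figure D5:**
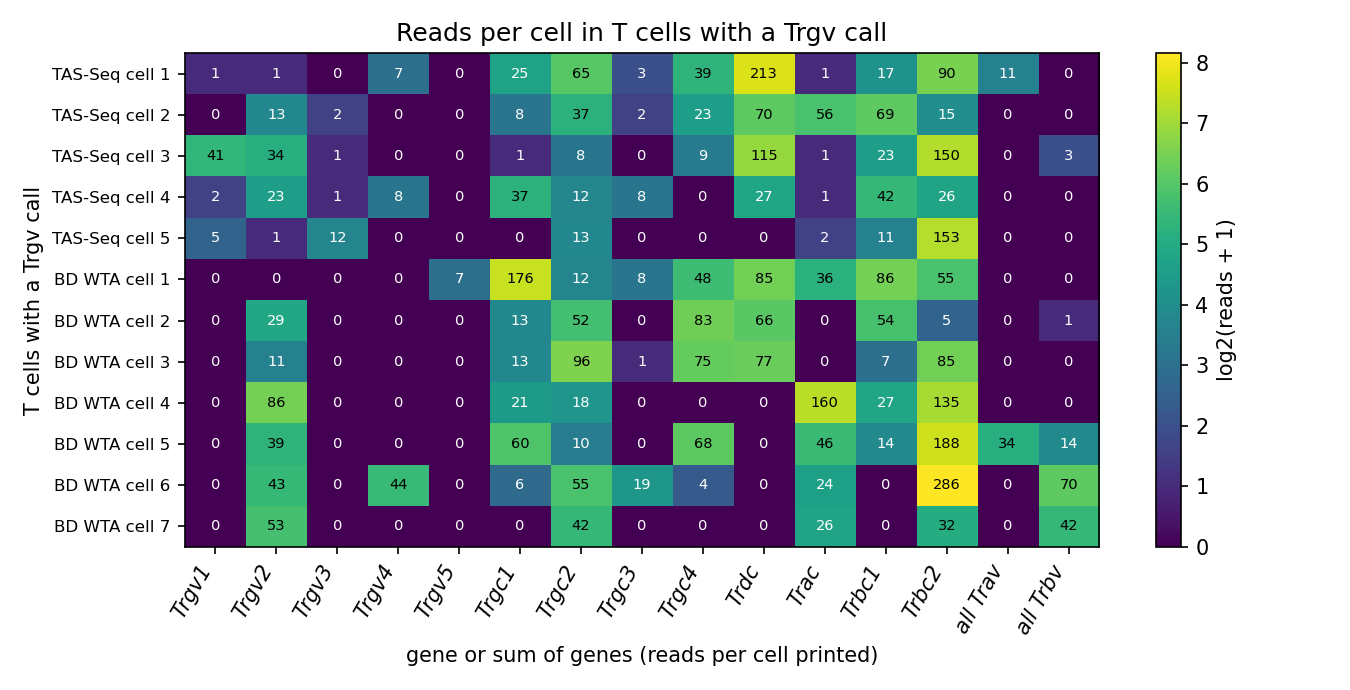
Reads per cell of gamma, delta, alpha and beta receptor genes in the 5 TAS-Seq and 7 BD WTA T cells with a Trgv call; each row is a cell, the number printed is its reads, and the colour is log2(reads + 1). Trdc is at 0 in BD WTA cells 4 to 7, which have 24 to 160 Trac reads, and in TAS-Seq cell 5.

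Delta V genes were called in 1 T cell of each library, and in both the reads lay on the near-identical pair printed above. The TAS-Seq cell, a CD8 cell, had 8 reads of Trdv2-2 and 5 of Trdv2-1 beside 41 reads of Trac and 5 of Trbv16, and the BD WTA cell, a CD4 cell, had 7 reads of Trdv2-1 and 6 of Trdv2-2 beside 10 reads of Trac. Neither had a read of Trdc. Only 23.75% of the Trdv reads of the TAS-Seq library and 19.7% of those of the BD WTA library were in T cells. Among BD WTA B-gated cells, 1 held 36 reads of Trdv5, with 9804 CPM of the B-cell genes and none of the T-cell genes of the gate.

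The invariant T cell receptors were searched by their V genes, and cells were described with a list of genes of such cells. Trav11 led 3 TAS-Seq T cells when 1 read sufficed, with 17, 10 and 2 reads, and 1 BD WTA T cell, with 7 reads. Il2rb, a receptor subunit for interleukins found on memory and innate-like T cells, had at least 5 reads in 3 of 3 and 1 of 1 of them, against 33 of 105 TAS-Seq (31.4%) and 11 of 34 BD WTA T cells (32.4%) led by another family. Klrb1c, which encodes NK1.1, had at least 5 reads in 2 of the 3 TAS-Seq cells and in 3.81% of the others. With BD WTA it did so in 0 of 1 and in 2.94% of the others. Zbtb16, the transcription factor PLZF of innate-like T cells, had 32 reads in the cell with 10 Trav11 reads and at least 5 reads in 2.86% of the others. With BD WTA it reached 5 reads in 0 of 1 and in 0% of the others. Tbx21, Cd44, Cxcr6 and Slamf6 each reached 5 reads in 1 of the 3 TAS-Seq cells, and none of them did in the BD WTA cell. Of the 3 TAS-Seq cells, 2 also had a read of Traj18, the J segment of the invariant chain, as did 6 other TAS-Seq T cells. Trav1, the V gene of mucosal-associated invariant T cells, led 1 TAS-Seq cell with 4 reads, under the minimum for a call. That cell had 1 read of Traj33, 28 of Cxcr6, 22 of Il2rb and 19 of Klrb1c.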

How the data were processed

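The values deposited by the authors are counts of reads for each gene in each barcode, with no molecular identifiers and no scaling. The study's methods also describe a background subtraction for TAS-Seq data that removes counts judged to be background for some genes. Whether the deposited values carry that step was not tested. The submitters' processing notes name cutadapt 2.10, Bowtie2 2.4.2 and R 3.6.3 with build GRCm38. By the study's methods reads were mapped to transcripts on the forward strand, so reads of near-identical V genes may be placed on any copy. Barcodes with at least 500 genes and at most 25% mitochondrial reads were kept, and no doublet caller was run. Instead, T cells with B-cell genes were counted and left out in an alternative. Members, gates and gene lists were chosen with earlier results of these data known.

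Reads were summed per family or gene and scaled to CPM where levels are given. Exact binomial, exact Poisson and Newcombe intervals came from scipy 1.17.1 and numpy 2.4.6 under Python 3.11.15, and TMM factors from edgeR 4.0.16. With 1 library per method no test was run. Scripts were tested on simulated data. Positions and sequences came from GENCODE, and for 5 rows positions came from RefSeq.

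Named were Trav families and Trbv genes with at least 5% of called cells in a library, Trgv and Trdv genes with a call, Trav1, Trav11, Trbv1, Trbv13-1, Trbv13-2, Trbv13-3, Trbv29, Trbv19 and Trbv31, and genes leading by level or in CD4 against CD8 cells under set minimums, which gave none. Other genes and single cells, the split by constant reads, the treatment of ties as no call, the Traj18 and NK-marker counts, the use of rows named Trgc1 to Trgc4 for the gamma constant genes and the choice of sequences were made after the values were seen. Alternatives varied the read minimums, cell filter, gates, depth, unit of a call, normalization, level filter and weight of cells.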

Additional observations from a re-analysis of the deposited data

Results flagged for a closer look

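Delta V reads appeared in cells that the comparisons leave out. Of 17 TAS-Seq cells outside the T-cell gate with at least 3 of the 5 NK-cell markers, 4 had a Trdv call (23.5%, exact binomial interval 6.81% to 49.9%), against 0 of 399 B-gated cells of the same library (upper limit 0.92%) and 1 of 275 T cells (0.364%). The 17 cells held 60 of the 80 Trdv reads of that library. In 3 of the called cells the reads lay on Trdv2-1 and Trdv2-2, with 7 and 15, 8 and 4, and 12 and 7 reads, and the other had 6 reads of Trdv4. Reads of Trdc numbered 35 in 1 of them and at most 1 in the others. With BD WTA 1 of 23 such cells had a Trdv call (4.35%, 0.110% to 21.9%), with 11 and 6 reads of Trdv2-1 and Trdv2-2 beside 244 reads of Gzma. That cell also had 390 CPM of the B-cell genes and was 1 of the 2 B-gated cells with a Trdv call. The source of these reads was not tested.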

How the results depend on the processing

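No paired analysis was possible because there was just 1 library for each method, and no test was run. Of 104 alternative values for the 26 main results, 88 stayed within the 95% interval of the main value and 16 moved. Of these, 1 changed sign, the Trbv level, whose main interval took in 0. In the TAS-Seq library the share of T cells with a Trav call was 34.2% at 2 reads, 16.7% at 10 reads, 11.9% after thinning and 16.4% by single row. The share with a Trbv call was 22.2%, 10.5% and 8.96% at 2 reads, 10 reads and after thinning, and 10.5% of cells had both calls at 2 reads. With BD WTA the Trbv share was 16.4%, 6.27% and 5.24% under the same settings, and both calls were left in 0.749% of thinned cells. B-gated TAS-Seq cells with any V read made up 10.3% at 1 read. At 10 reads Trbv16 led 0% of BD WTA cells. Over rows with at least 3 reads in each library, the TAS-Seq level over the BD WTA level gave a log2 ratio of 0.00022 for Trav rows and -0.094 for Trbv rows. The cause of these moves was not tested. Most T cells had too few V reads for a call, and how far depth or the capture of V sequence sets this was not tested.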
